A study of Drosophila melanogaster x Drosophila simulans and Drosophila melanogaster and Drosophila simulans with 186 samples.

Results

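The 10 genes smg, png, plu, gnu, twin, me31B, cup, tral, pum and brat encode regulators of the translation and clearance of maternal mRNA. They were chosen by name from the 13577 genes in the FPKM values of each embryo slice and the 7432 genes with allele-specific expression (ASE). Of the 10, 9 have an FPKM row of their own. cup has none, because its locus (2L:6663664-6674780) is listed under another gene name, so cup was described by its alleles alone. FPKM counts fragments relative to gene length and to the number of fragments mapped in the library. ASE is the difference of D. simulans and D. melanogaster reads divided by their sum, and lies between -1 and 1.

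Embryos of both species and of their reciprocal hybrids, all at blastoderm cycle 14C, were cut from anterior to posterior into 186 slices that were sequenced separately. The 3 melXsim hybrids had a D. melanogaster mother of strain DGRP-340 and a w501 D. simulans father, and the 2 simXmel hybrids had the opposite parents. A single DGRP-340 embryo (melXmel) and a single w501 embryo (simXsim) stood for the parents, so parental values have no replicates. The embryo is the replicate and its slices are not, and each species is represented by 1 strain. Each embryo gave 25 to 27 slices, of which FPKM values from 169 were used. ASE values exist for 178 slices, of which the 126 from hybrids were used.

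The oocyte is loaded with mRNA that drives development until the zygotic genome takes over, and much of this mRNA is silenced or destroyed after egg activation. The PNG kinase, made of the catalytic subunit png and the activating subunits plu and gnu, switches on translation of many maternal mRNAs at egg activation, smg among them. The Smaug protein (smg) binds maternal mRNAs and recruits the CCR4-NOT deadenylase, whose CCR4 subunit is encoded by twin. The RNA helicase me31B, the eIF4E-binding protein cup and the LSm-domain protein tral form a complex that represses translation. Pumilio (pum) and Brain tumor (brat) bind untranslated regions of mRNAs and repress their translation.

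2 libraries stood apart from their neighbours. Slice 3 of simXmel embryo 2 held 77.1 FPKM of the pole cell gene pgc, against a median of 3.63 in the other slices of that embryo, and 23.05 of gnu against 0.68. Slice 21 of melXsim embryo 2 held 110 FPKM of pgc, 17.98 of the anterior marker bcd, 77.7 of smg and 62.2 of pum, the medians elsewhere being 3.43, 0.20, 13.8 and 15.3. The first of them has no ASE values. Comparisons were repeated without both slices. In the last slice of all embryos pgc was at 169 to 1246 FPKM, while in the first slice it was at 0.76 to 10.3, so the labelled posterior end carries the germ plasm RNA. bcd was higher in the anterior tip than in the middle in all 7 embryos, only slightly so in melXsim embryo 1 (0.68 against a median of 0.45 FPKM). The last slice of melXsim embryo 2 had little nos RNA (1.11 FPKM against 40.1 to 348 in the other embryos).

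The 9 genes with FPKM spanned a range from me31B, with a mean of 847 ± 103 FPKM (SD over the 7 embryos), to png with 3.62 ± 2.14. me31B was above tral (198 ± 133 FPKM) in all 7 embryos, tral above brat (45.9 ± 9.68) in all 7, and brat above smg (26.4 ± 12.3) in all 7. The order of smg and twin (23.3 ± 4.20 FPKM) was not settled, since smg was higher in 3 of 7 embryos. pum (13.1 ± 6.72), plu (8.13 ± 6.40), gnu (4.14 ± 1.20) and png followed. twin exceeded pum in 6 of 7 embryos, pum exceeded plu in 5, plu exceeded gnu in 4 and gnu exceeded png in 5. All 9 genes passed the filter of a mean of at least 1 FPKM in at least 1 hybrid embryo.

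**Figure D1:**
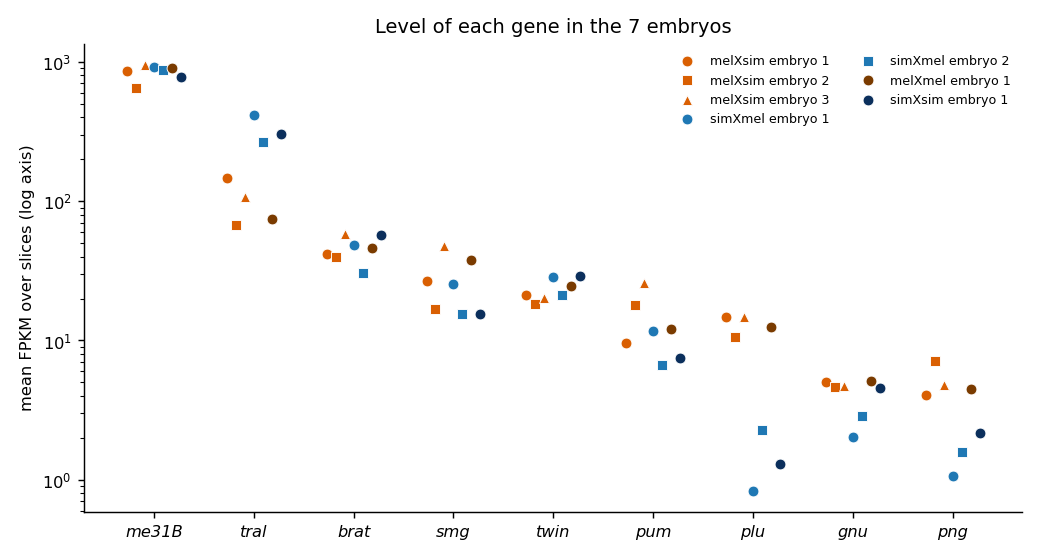
Mean FPKM over the slices of each embryo (log axis) for the 9 genes with FPKM values, in order of their mean; each point is 1 embryo and colours give the cross. plu lies between 10.6 and 14.7 in melXsim embryos and between 0.84 and 2.29 in simXmel embryos, while tral is higher in the simXmel embryos.

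The reciprocal crosses ask whether a level follows the species of the mother. Over all 7238 genes tested with limma on log2(FPKM + 1), 8.66% were called higher in simXmel and 7.29% lower, at an adjusted p below 0.05 (Benjamini-Hochberg). The median of all genes was 0.11 above 0 on the log2 scale. Of the 9 members, tral was called higher in simXmel, and plu and png lower. The median over the 9 was -0.45. me31B, twin, brat, smg, gnu and pum were not called. Where the directions are said below not to overlap, the share of all genes with such a split was not counted. With so few embryos it can also arise by chance. With no filter on low values, when 13577 genes were tested, none of the 3 calls remained (limma adjusted p = 0.0564 for plu, 0.0998 for png and 0.167 for tral).

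plu, which encodes the ankyrin-repeat subunit needed to activate PNG, had the largest difference among the members. Its mean over slices was 14.7, 10.6 and 14.7 FPKM in melXsim embryos 1 to 3, and 0.84 and 2.29 in simXmel embryos 1 and 2. The directions did not overlap, with 13.3 ± 2.37 (SD, n = 3) against 1.56 ± 1.03 (n = 2), an 8.53-fold lower level with a D. simulans mother. The difference was -2.53 on the log2 scale (SE 0.33, limma adjusted p = 0.000645). The parents differed in the same direction, with 12.5 FPKM in melXmel and 1.29 in simXsim. Within a slice, plu was listed at 0 in 13 of the 20 slices of simXmel embryo 1, in 5 of 25 of simXmel embryo 2 and in 6 of 25 of simXsim, but in none with a D. melanogaster mother.

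plu (FBgn0003114, 2R:16150463-16151189, release 5) lies 74 bases from PCNA, and whether reads were assigned by strand is not given in the sources used here. Library batches, taken from the study's sample list, put embryo 1 of each direction in a first batch and the rest in later ones. The difference in plu was -3.10 in the first batch and -2.03 in the later ones. The library batch (first against later, with the later ones pooled) was added as a term in limma after seeing the data. With this term plu (-2.49, adjusted p = 0.00444), png (-1.36, adjusted p = 0.0233) and tral (1.58, adjusted p = 0.0173) were called.

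png, the catalytic serine/threonine kinase on the X chromosome, was also lower with a D. simulans mother. Its mean was 4.08, 7.16 and 4.79 FPKM in melXsim embryos and 1.06 and 1.59 in simXmel embryos, and the directions did not overlap. The difference was -1.43 (SE 0.30, limma adjusted p = 0.0105), or 4.02-fold between the group means. The parents stood at 4.48 FPKM in melXmel and 2.18 in simXsim, with median slices at 4.32 and 0.59. The simXsim mean includes a last slice at 37.8 FPKM. The difference between the directions was -1.30 in the first library batch and -1.41 in the later ones. Without simXmel embryo 1 or 2 the call was lost, with adjusted p values of 0.114 and 0.0604.

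gnu, the subunit whose dephosphorylation at egg activation lets the kinase assemble, had means of 5.04, 4.65 and 4.70 FPKM in melXsim and 2.01 and 2.88 in simXmel embryos. The directions did not overlap, but the difference of -0.76 (SE 0.27) was not called, with a limma adjusted p of 0.0882. Without the 2 slices that stood apart it was -0.91 and was called (limma adjusted p = 0.0449), and with medians over slices it was -1.26 and was called (adjusted p = 0.0177). The other alternatives did not call it, with a replicate block at an adjusted p of 0.159 and the highest at 0.348. The parental means were 5.16 FPKM in melXmel and 4.55 in simXsim, but the median slices were at 4.33 and 1.63. The simXsim mean includes a last slice at 72.5 FPKM.

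The next comparison was along the axis, starting with the posterior tip. Comparing the last 10% of the length (the tip) with the middle between both tips within each embryo, 11.2% of all genes were called higher and 5.57% lower. Of the 9 members, gnu, plu and png were called higher and none lower, and the median member was at -0.09 beside 0.05 for all genes.

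gnu had the steepest rise. In the last slice it reached 29.1, 8.99 and 22.6 FPKM in melXsim embryos 1 to 3, 12.03 and 27.6 in simXmel embryos, 13.3 in melXmel and 72.5 in simXsim. The median slices of these embryos were at 3.63, 3.16, 3.82, 1.06, 0.73, 4.33 and 1.63 FPKM. The last slice was the highest of its embryo in 6 of the 7. The exception, melXsim embryo 2, peaked at 16.2 FPKM in slice 24 and was also the embryo with little nos RNA in its last slice. The posterior tip exceeded the middle in all 5 hybrids, by 1.87 on the log2 scale (SE 0.23, limma adjusted p = 0.00354). With no filter on low values the calls of gnu and png were lost (limma adjusted p = 0.0586 and 0.117).

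plu rose at the same end in both directions of the cross, from very different levels. The posterior tip and middle were at 21.5 and 14.0 FPKM in melXsim embryo 1, at 13.3 and 10.6 in embryo 2 and at 25.4 and 13.8 in embryo 3. In simXmel embryos they were at 2.27 and 0.76, and at 3.94 and 1.49. The mean difference was 0.76 (SE 0.10, limma adjusted p = 0.00513), with all 5 hybrids above 0. With a tip of 20% of the length it was 0.32 and was not called (limma adjusted p = 0.0945).

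At the posterior end png had high values with a D. simulans mother. In the last slice it reached 8.52 and 14.8 FPKM in simXmel embryos and 37.8 in simXsim, whose median slices were at 0.60, 1.06 and 0.59. In melXsim embryos the last slice was at 4.38, 4.55 and 6.11 FPKM and in melXmel at 6.02, near the medians of 3.75, 7.20, 4.57 and 4.32. The log2 difference between the tip and the middle was 1.84 and 2.19 in simXmel, and -0.32, -0.86 and 0.26 in melXsim. Averaged over the directions it was 0.85 (SE 0.17, limma adjusted p = 0.0204), and without a term for the direction the call was lost (0.62, adjusted p = 0.426). It was also lost without melXsim embryo 1 or either simXmel embryo (adjusted p = 0.0584, 0.0733 and 0.126). The difference between the directions was 2.32 (SE 0.34) with p = 0.000383 in limma, which after adjustment over all genes was 0.0589.

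**Figure D2:**
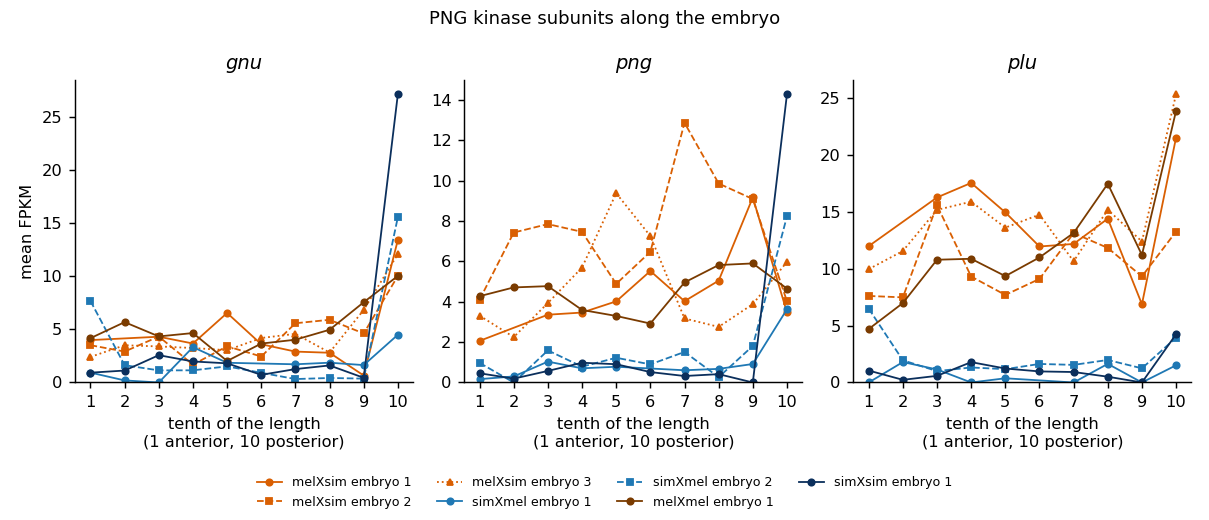
Mean FPKM of gnu, png and plu in 10 bins of equal length from anterior (1) to posterior (10), 1 line per embryo; colours give the cross and symbols the embryo. gnu is highest in the last bin in all 7 embryos, while png rises there in the simXmel and simXsim embryos; the high first bin of simXmel embryo 2 in gnu and plu contains the slice that stood apart.

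Pole cell markers were measured in the same region. Of 7 markers, pgc, nos, osk, gcl and CycB were called higher in the posterior tip, and vas and aub were not. pgc rose by 5.48 (SE 0.45, limma adjusted p = 0.000791). The summed level of the 7 in the tip was 269 to 671 FPKM in melXsim embryos and 1014 to 1066 in simXmel embryos, against 167 to 279 in the middle of these 5, and none of the 7 was listed at 0 in any last slice. The lowest sum was in melXsim embryo 2, where the tip (269) was close to the middle (268). CycB, the largest part of the sum in that embryo, was at 165 FPKM in its tip against a median of 201 in the middle. There pgc was at 66.4 against 3.36. At the anterior tip the sum was 295 to 432 FPKM over the 7 embryos, above the middle in each, and CycB was called higher there too (0.75, SE 0.12, limma adjusted p = 0.0122). The part of the pole cells in the levels of gnu, plu and png was not tested. In a slice, more cells of a type and more RNA per cell cannot be told apart.

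Each embryo was also divided into 3 sections of equal length, anterior, central and posterior. In the posterior against the anterior section, 6.45% of genes were called higher and 8.59% lower. Among the members png (0.71, SE 0.08, limma adjusted p = 0.00276) and gnu (0.80, SE 0.14, adjusted p = 0.0159) were called higher, each in all 5 hybrids, and none was called lower. Taking medians over slices ended both calls (0.35 and 0.25, adjusted p = 0.270 and 0.408). The call of gnu was also lost without melXsim embryo 1 or 2 (adjusted p = 0.0512 and 0.0582). At the anterior tip 7.43% of genes were called higher than in the middle and 4.31% lower, and none of the 9 members was. The lowest adjusted p values in limma there belonged to png (-0.50, 0.0505) and tral (-0.32, 0.0559), with 4 members at an unadjusted p below 0.05. Both genes were below the middle in all 5 hybrids, and without the 2 slices that stood apart both were called (-0.74 and -0.36, limma adjusted p = 0.0147 and 0.0489). plu, at 0.02 there, was at 0.62 without simXmel embryo 1 and at -0.59 without simXmel embryo 2. gnu was at 0.35 there, and at 1.01 without simXmel embryo 1. The anterior tip of simXmel embryo 2 holds slice 3, which stood apart. Without the 2 slices that stood apart plu was at -0.30 and gnu at -0.41, and neither was called (limma adjusted p = 0.320 and 0.114).

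Few allele-specific values exist for the PNG subunits. plu had ASE in 9, 7 and 9 slices of the melXsim embryos, where 94.4, 92.5 and 94.2% of the reads that could be assigned came from the maternal allele, and in no slice of the simXmel embryos. gnu had a value in 1 slice each of 3 embryos (96.4, 79.5 and 93.4% maternal). png had 4 values, all in melXsim embryo 2 (92.8% maternal on average). None of the 3 was tested, since plu and gnu lack values in at least 3 slices of every hybrid and png is X-linked. The deposited table holds no value of exactly -1 or 1. Slices with reads of only 1 allele may thus be missing from these shares, which was not tested.

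The other 7 genes are autosomal and had ASE in nearly all slices of every hybrid. The share of reads from the maternal allele could thus be followed along the embryo. Such reads include transcripts deposited by the mother and those made in the embryo from the maternal copy, which ASE does not separate. Among 4611 autosomal genes tested, 83.2% had more maternal than paternal reads by limma on the log2 ratio, and 0.0867% had fewer. The median log2 ratio of all genes was 1.92 and that of the 7 members 4.39. Since most genes were called, the values of the members were read relative to that median. cup, me31B, tral, pum, smg and twin were called maternal (more reads from the maternal allele), and brat was not.

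**Figure D3:**
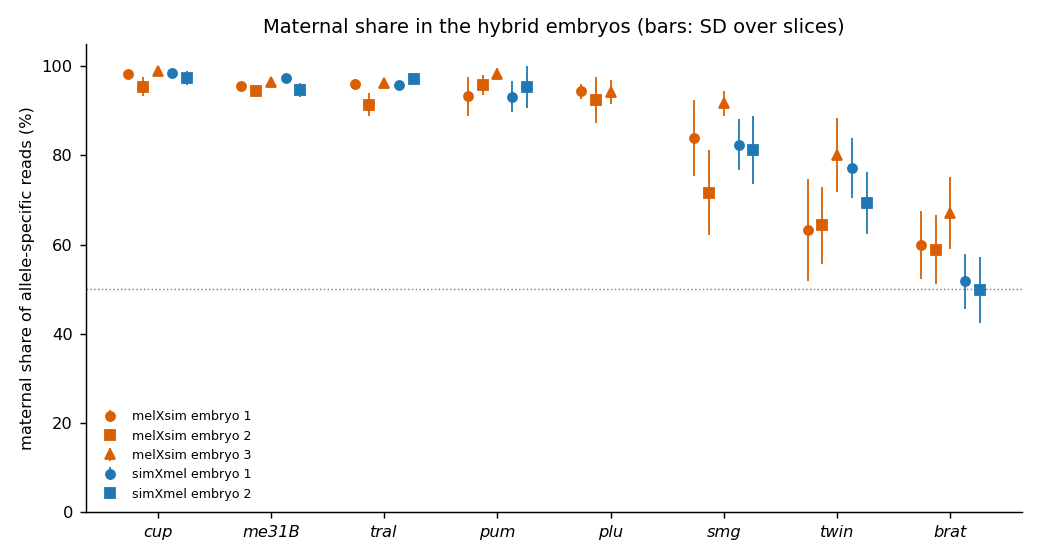
Maternal share of the allele-specific reads (%) in the 5 hybrid embryos; points are means over slices and bars their SD, and the dotted line marks equal shares. cup, me31B, tral and pum lie between 91.4 and 98.9%, smg and twin between 63.2 and 91.7%, and brat between 49.8 and 67.1%; plu has values in melXsim embryos only.

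Reads of the repressor complex genes came almost wholly from the maternal allele. The share of cup was 98.2, 95.4 and 98.9% in melXsim and 98.4 and 97.4% in simXmel embryos. Its log2 ratio was 5.57 (SE 0.32, limma adjusted p = 3.93e-06), and the allele counts behind it had a median of 364 to 571 per slice. Galt and Spn27A lie inside the locus of cup, and their part in its allele counts was not tested.

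The helicase gene me31B was at 95.6, 94.5, 96.5, 97.4 and 94.6% maternal in the same order of embryos, with 3286 to 3999 counts in the median slice. Its lowest single slice was still at 89.0%. tral was at 96.1, 91.4, 96.2, 95.7 and 97.1%. The log2 ratios were 4.56 (SE 0.21) for me31B and 4.51 (SE 0.24) for tral, with limma adjusted p values of 1.64e-06 and 2.76e-06. Along the axis the maternal share of me31B varied by an SD of at most 1.58 percentage points within an embryo.

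tral, the LSm-domain partner of me31B, was the one member called higher under a D. simulans mother. Its means were 147, 67.7 and 107 FPKM in melXsim and 416 and 267 in simXmel embryos. The directions did not overlap, and the difference was 1.70 (SE 0.37, limma adjusted p = 0.0115), a 3.19-fold change of the group means. The parents stood at 74.6 FPKM in melXmel and 304 in simXsim. The difference was 1.497 in the first library batch and 1.64 in the later ones. The call was lost without simXmel embryo 1 or 2 (adjusted p = 0.151 and 0.0542).

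me31B differed little between the crosses by comparison. Its means were 858, 648 and 945 FPKM in melXsim and 919 and 875 in simXmel embryos, and 907 and 777 in the parents. The directions overlapped, with a difference of 0.15 (SE 0.28, limma adjusted p = 0.763). Over 10 bins of the length of an embryo the highest was 1.195 to 1.60 times the lowest, against 1.37 to 1.77 times for tral.

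pum, a sequence-specific RNA-binding protein of the PUF family, had mostly reads from the maternal allele as well. Its share was 93.2, 95.8 and 98.3% in melXsim and 93.2 and 95.4% in simXmel embryos, a log2 ratio of 4.39 (SE 0.30, limma adjusted p = 9.88e-06). Its level was 9.60, 17.9 and 25.8 FPKM in melXsim and 11.7 and 6.67 in simXmel embryos. These ranges overlapped, and the difference of -0.83 was not called (limma adjusted p = 0.206). It was 0.26 in the first library batch and -1.55 in the later ones.

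smg, the gene of the Smaug protein, had a lower maternal share. It was 83.9, 71.6 and 91.7% in melXsim embryos and 82.4 and 81.2% in simXmel embryos, so that 8.34 to 28.4% of its reads were paternal. The log2 ratio was 2.28 (SE 0.30, limma adjusted p = 0.000302), close to the median of all genes. Centred on that median it was 0.32 and not called (adjusted p = 0.102). None of its 126 slice values was below 50%.

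The share of smg was lowest toward the ends of the embryo. In the anterior, central and posterior sections it was 77.4, 89.3 and 85.5% in melXsim embryo 1, 65.6, 77.6 and 73.1% in embryo 2, and 89.7, 93.5 and 91.8% in embryo 3. In simXmel embryos it was 80.2, 87.1 and 79.4%, and 81.0, 83.9 and 78.7%. The central section was the highest in all 5. No test was made of the central section, which was singled out after the values had been seen.

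The level of smg was uneven along the embryo and between embryos. Its mean was 26.5, 16.7 and 47.5 FPKM in melXsim, 25.6 and 15.5 in simXmel, 37.8 in melXmel and 15.5 in simXsim embryos. Hybrid directions overlapped (-0.45, SE 0.42, limma adjusted p = 0.512). In melXmel it rose from 20.4 FPKM in the first of 10 bins of its length to 66.4 in bin 5 and was 33.9 in the last. Its profile over these bins had a mean Pearson r of 0.22 over the 21 pairs of embryos (range -0.49 to 0.78).

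twin, which encodes the CCR4 deadenylase recruited by Smaug, had more paternal reads than smg in 5 of 5 embryos. Its maternal share was 63.2, 64.3 and 80.1% in melXsim and 77.2 and 69.4% in simXmel embryos. The log2 ratio was 1.34 (SE 0.23, limma adjusted p = 0.00127). Relative to the median of all genes it was lower, by -0.62 (adjusted p = 0.00372). Of its 126 slice values 5 were below 50%, all in melXsim embryos 1 and 2.

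In the anterior section the paternal alleles of twin were most frequent. The maternal share there and in the posterior section was 52.3 and 69.7% in melXsim embryo 1, 59.3 and 67.3% in embryo 2, 72.6 and 85.2% in embryo 3, and 75.0 and 76.7%, and 64.5 and 70.3%, in the simXmel embryos. The posterior section was higher in 5 of 5 hybrids, by 0.58 on the log2 scale (SE 0.14), which was not called (limma adjusted p = 0.0784). Of 4421 genes, 2.69% were called more maternal in the posterior section and 0.294% less, and the median of all genes was 0.21. None of the 7 members was called in that comparison, and 1 had an unadjusted p below 0.05. Between the posterior tip and the middle, 0.248% of 4034 genes were called more maternal and 0.248% less. No member was among them either, with 1 at an unadjusted p below 0.05.

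The level of twin was 21.2, 18.2 and 20.1 FPKM in melXsim, 28.3 and 21.3 in simXmel, 24.8 in melXmel and 29.1 in simXsim embryos. The hybrid groups did not overlap, but the difference of 0.30 was not called (limma adjusted p = 0.509). The last slice of simXmel embryo 1 held 52.4 FPKM against a median of 25.6. At the posterior tip twin was 0.32 above the middle (SE 0.09), not called in limma (adjusted p = 0.0675) except without melXsim embryo 2 (adjusted p = 0.0487).

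brat, a TRIM-NHL protein that acts with Pumilio, was the member with the most even alleles. Its maternal share was 59.9, 58.8 and 67.1% in melXsim and 51.8 and 49.8% in simXmel embryos, with 381 to 936 allele counts in the median slice. The log2 ratio of 0.38 (SE 0.15) was not called in limma (adjusted p = 0.0525), while edgeR and DESeq2 on allele counts called it (0.38 in both, adjusted p = 0.0383 and 0.0266). limma also called it without melXsim embryo 2 (0.42, adjusted p = 0.0405), with more slices required (adjusted p = 0.0465) and with a trend of the variance (adjusted p = 0.00952). It did not with a replicate block (adjusted p = 0.2001) or in the other limma alternatives that kept its sign. It was far below the median of all genes, by -1.58 (adjusted p = 1.39e-06). In simXmel embryos 8 of 25 and 13 of 24 slices had more paternal than maternal reads, in melXsim embryos 2, 2 and none.

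The alleles of brat were unevenly distributed along the axis. In the anterior section the D. simulans allele made up 46.7, 46.7 and 40.3% in melXsim embryos and 56.7 and 55.9% in simXmel embryos. In the central section it made up 33.0, 35.9 and 24.9%, and 49.7 and 46.3%. In the posterior section it made up 39.8, 39.7 and 33.6%, and 49.1 and 47.1%. The D. simulans share was lower in the central than in the anterior section in all 5 hybrids, whichever species was the mother. The drop between these 2 sections was 6.92 to 15.4 percentage points. This contrast was chosen after the values had been seen and was not tested.

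**Figure D4:**
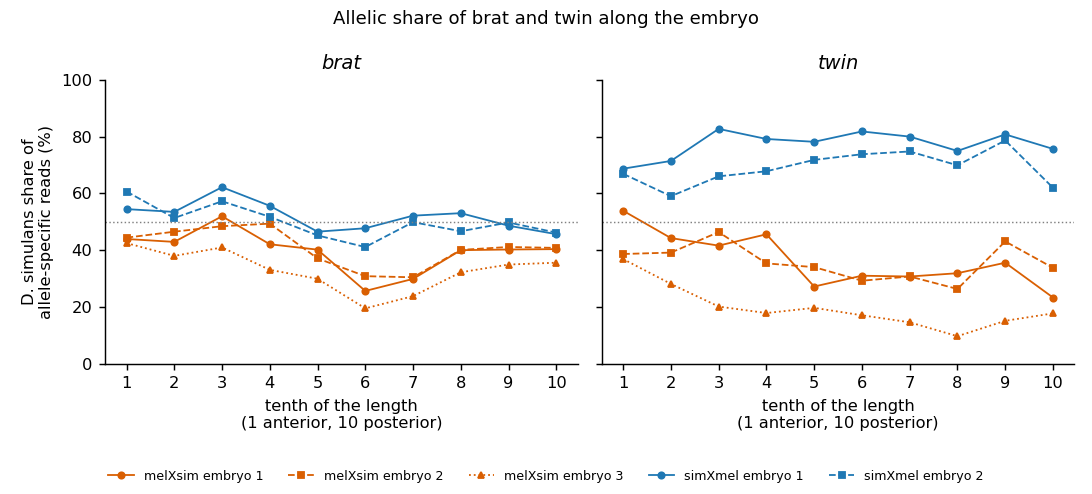
D. simulans share of the allele-specific reads (%) of brat and twin in 10 bins of the length, 1 line per hybrid embryo; the dotted line marks equal shares. The lines of brat in the 3 melXsim embryos are lowest in bin 6 or 7; in the first bin of twin the maternal share is 46.1 to 68.7%.

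The level of brat also dipped behind the middle of the embryo. Of 10 bins of equal length from anterior to posterior, its lowest was bin 7, 7 and 8 in melXsim embryos, bin 7 in both simXmel embryos, bin 8 in melXmel and bin 6 in simXsim. These bins held 27.6, 23.2, 43.5, 27.9, 13.1, 26.97 and 34.7 FPKM. Bin 9 was at 51.6, 47.0, 78.01, 51.2, 48.9, 56.2 and 75.3 FPKM in the same order. Bin 7 of simXmel embryo 1 and bin 9 of melXsim embryo 1 and of simXsim held 1 slice each. In simXmel embryo 1 bin 6 held no slice used for FPKM. The dip was described from the values and was not tested. Over the whole embryo brat was at 42.0, 39.8 and 57.9 FPKM in melXsim and 48.1 and 30.4 in simXmel embryos, which overlapped (-0.26, limma adjusted p = 0.623).

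**Figure D5:**
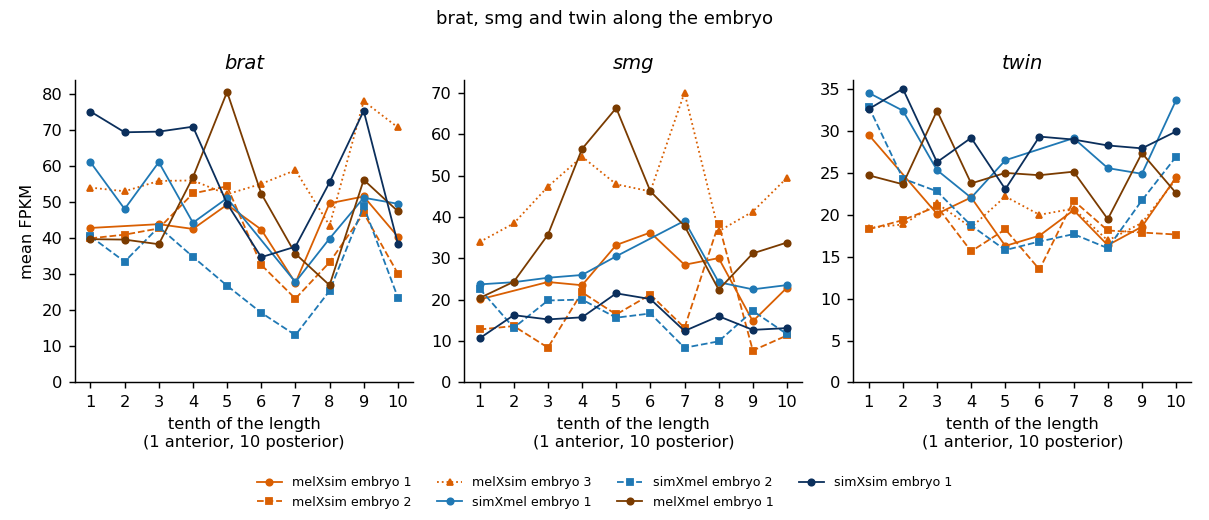
Mean FPKM of brat, smg and twin in 10 bins of the length, 1 line per embryo. brat has its lowest value between bins 6 and 8 in all 7 embryos, in simXmel embryo 1 in a bin of 1 slice. Bin 8 of smg in melXsim embryo 2 contains the slice that stood apart.

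The log2 ratio of D. simulans to D. melanogaster reads was averaged over both directions of the cross. It was called toward D. simulans for 10.4% of the genes and toward D. melanogaster for 24.8%, with a median of -0.23 over all genes. The same bias under both mothers was not required for a call. None of the 7 members was called in limma, and none had an unadjusted p below 0.05. The lowest adjusted p belonged to brat (-0.33, SE 0.15, adjusted p = 0.131). edgeR and DESeq2 called none of me31B, brat and cup. tral had a log2 ratio of 0.28 (SE 0.24, limma adjusted p = 0.392), beside the difference of 1.70 in its level between directions of the cross.

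Other genes of these pathways were taken from lists chosen by name. Between the directions of the cross, 8.66% of all genes were called higher in simXmel and 7.29% lower. The counts in these lists are to be read beside those shares. Of 9 CCR4-NOT genes tested between the directions of the cross, Pop2, a catalytic deadenylase subunit, was called lower in simXmel (-1.33, SE 0.30, limma adjusted p = 0.0144) and none higher. Pop2 was at 102, 67.7 and 92.5 FPKM in melXsim and 39.6 and 28.9 in simXmel embryos, and its log2 ratio of D. simulans to D. melanogaster reads was -1.72 (SE 0.22, adjusted p = 0.00238). The median of the list was 0.55. Of 6 decapping genes 1 was called higher, Ge-1, a scaffold of the decapping complex (1.36, adjusted p = 0.0212). It was at 15.8, 7.40 and 12.7 FPKM in melXsim and 32.1 and 30.0 in simXmel embryos.

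Of 13 partners in repression, eIF-4E and nos were called higher in simXmel and aub lower, beside 8.66 and 7.29% of all genes. nos differed by 1.73 (adjusted p = 0.0459) and aub, a piRNA-binding protein, by -1.63 (adjusted p = 0.0125). Of the 8 genes around the PNG kinase and the 4 in the turnover of the repressors none was called. In the posterior tip 6 of the 13 partners were called higher and none lower, beside 11.2 and 5.57% of all genes. Of the 6, nos and osk are among the pole cell markers counted above, and nos was higher by 4.60 (SE 0.64, adjusted p = 0.00572). From the other lists Pop2 and Not3 (2 of 9) and CycB (1 of 8) were higher, Pop2 by 0.40 (adjusted p = 0.0279). CG14317, from the turnover list, was lower there by -0.99 (adjusted p = 0.00258) and higher in the anterior tip by 0.40 (adjusted p = 0.0327).

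Of all genes tested 83.2% were called maternal, and the counts in the lists are to be read beside that share. All 8 CCR4-NOT genes tested, all 5 decapping genes, all 7 partners and all 8 genes around PNG were called maternal in limma, beside 2 of the 4 turnover genes. The median log2 ratios were 2.14, 4.47, 4.05, 3.86 and 0.38 in that order, and 1.92 for all genes. Edc3, an activator of decapping, had the highest value among the decapping genes (6.49, SE 0.19). Not1, the scaffold of CCR4-NOT, reached 5.06 (SE 0.21) and the kinase polo 4.68 (SE 0.16). muskelin, a subunit of the ligase that degrades the repressors, was at 1.20 (SE 0.26).

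The genes most like each member were sought over the 118 hybrid slices, by Pearson r of log2(FPKM + 1) after subtraction of each embryo's mean, among 5332 or 5333 genes with a mean of at least 5 FPKM. These slices come from 5 embryos and neighbours share position and library depth, so r is a description. pgc was the most similar gene to both gnu (r = 0.58) and plu (r = 0.51), without the slices that stood apart 0.55 and 0.49. The next were Eno, the gene of enolase, for gnu (0.57) and grp, the checkpoint kinase Chk1, for plu (0.47). png resembled eIF-4E (0.46) and Tao (0.45).

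For smg the most similar were ck, a myosin VIIa, and CG5604 (0.73 and 0.71), and for me31B CG1344 and CG17691 (0.77 and 0.77). twin resembled tub (0.58), the Toll-pathway adaptor Tube, and CG6422 (0.55). tral resembled CG8108 and CG1677 (0.65 and 0.64), and pum H (0.58), the gene of Hairless, and CG4911 (0.55). brat resembled MEP-1 (0.67) and Mtor, the nuclear pore protein Megator (0.62). For pum the value with H fell to 0.49 without the slices that stood apart.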

How the data were processed

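Slices were assigned to embryos by their labels, slice 1 being anterior. Position was the midpoint of a slice, counted in slices from the anterior end, divided by the number of slices. The authors mapped reads with STAR 2.4.2a to a D. melanogaster genome (release 5) in which variants between the strains were masked, so that D. simulans transcripts were measured on D. melanogaster gene models, and whether strand was used in counting is not given in the sources used here. The deposited FPKM values come from Cufflinks 2.2.1. The deposited ASE score per gene and slice and the deposited allele counts come from ASEr after the WASP filter. CASAVA 1.8.2 was also named in the submitters' processing notes. FPKM files give no read totals, so the depth behind FPKM is unknown. Allele counts could be used for me31B, brat and cup only, since the gene coordinates in the count files differ from those in the FPKM files for most genes. Their depth is given with each SNP counted once, while edgeR and DESeq2 used the counts as deposited, which can list a SNP more than once (1507 genes with at least 20 counts in every embryo).

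FPKM was averaged over slices of an embryo or region and tested as log2(FPKM + 1), and fold changes on this scale understate low genes. ASE was averaged over slices and turned into a log2 ratio of maternal to paternal reads, for genes with values in at least 3 slices of every hybrid. limma 3.58.1 was fitted over embryos with the direction of the cross as a term and no trend of the variance, and p-values were adjusted over all genes. edgeR 4.0.16 and DESeq2 1.42.0 in R 4.3.3 were alternatives, and the scripts were tested on simulated data. Figures were drawn with matplotlib 3.10.9 and tables built with pandas 2.3.3, under Python 3.11.15. Alternatives were the pseudocount (0.1 FPKM), no filter, all deposited slices, medians over slices, centring on all genes, a tip of 20%, each embryo left out, the parental embryos added, a replicate block, no term for the direction, log2 ratios taken per slice, centring of ratios, and more slices with ASE. Differences between the directions, the fits without the 2 slices that stood apart, a library batch term and the trend of the variance were added after seeing the data.

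The members and gene lists were chosen with earlier results of these data known. Named genes were the 10 members, the 2 genes most like each, and for each list the gene of largest called change in each direction. Other genes of a list are named where few were called. 27 columns of the joint tables were not used. Sex of the embryos was not settled, so X-linked ASE was not tested. Sequences are not printed, and cup has no FPKM here.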

Additional observations from a re-analysis of the deposited data

Results flagged for a closer look

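4 results had all melXsim embryos on one side of 0 and both simXmel embryos on the other. They were picked for this split, and the share of all genes that split in this way was not counted. The maternal allele is that of D. melanogaster in melXsim and that of D. simulans in simXmel. Opposite signs of a maternal ratio (brat, smg and cup below) are thus the same shift of alleles in both crosses. The D. simulans share of these genes was lower on the posterior side of the comparison in every hybrid. The difference between the directions was then tested in limma on the same values, and for these ratios it measures that shared shift. None of the 4 passed after adjustment over all genes. For the maternal ratio of brat in the posterior section against the anterior section, the log2 values were 0.40, 0.41 and 0.42 in melXsim and -0.44 and -0.51 in simXmel embryos, a difference of -0.88 (SE 0.20, p = 0.00501, limma adjusted p = 0.122). For smg the same comparison gave 0.79, 0.51 and 0.36 against -0.07 and -0.21, a difference of -0.69 (SE 0.24, adjusted p = 0.241 in limma). The level of smg in the posterior section against the anterior section was 0.09, 0.65 and 0.07 against -0.04 and -0.60, a difference of -0.59 (SE 0.25, limma adjusted p = 0.478), and -0.31 without the 2 slices that stood apart. For cup the maternal ratio in the posterior tip against the middle was 0.39, 0.06 and 0.62 against -0.37 and -0.80, a difference of -0.94 (SE 0.32, limma adjusted p = 0.310).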

How the results depend on the processing

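Among the members, 1102 of 1147 alternative values kept their side of the threshold. Centring subtracts the median of all genes, so brat (-1.58) and twin (-0.62) in the maternal ratio fell below 0 by construction. Leaving centred ratios aside, 58 values had the opposite sign, of which 1 was called in either fit, plu at the anterior tip without simXmel embryo 2 (-0.59 against 0.02, and 0.62 without simXmel embryo 1). Counts of members called are given next. Without a filter (13577 genes tested) they were 0 for the direction of the cross instead of 3, 1 for the posterior tip instead of 3, 2 for the anterior tip instead of 0 and 1 for the posterior against the anterior section instead of 2. For the anterior tip, 1 was called with medians over slices, centring, no term for the direction, a 20% tip or a trend of the variance, and 2 without the slices that stood apart. For the sections, 1 was called with a pseudocount of 0.1 FPKM and 0 with medians. For the maternal ratio, 3 of 3 with usable counts were called by edgeR and by DESeq2, against 6 of 7 in limma. For the species ratio, 1 was called with centring (tral) and 1 with the trend (brat), against 0. For the maternal ratio in sections, 1 (twin) was called when more slices were required, against 0.

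Leaving out an embryo gave 1 to 3 members for the direction of the cross, 2 to 4 for the posterior tip, 0 to 2 for the anterior tip, 1 to 2 for the sections and 6 to 7 for the maternal ratio. With 1 simXmel embryo left, that embryo was assumed to vary like the others. The counts of all genes called were then 485 to 1153 of 7238 for the direction of the cross (1155 with all), 529 to 976 for the posterior tip (1214), 437 to 578 for the anterior tip (850), 521 to 918 for the sections (1089), 552 to 2108 for the species ratio (1622), 0 to 3 for the maternal ratio in sections (132) and 0 to 1 for that in the tip (20). The other alternatives gave 459 to 1179, 698 to 1260, 527 to 920, 541 to 1156, 1352 to 2185, 0 to 358 and 0 to 43 in the same order.

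Replicate numbers do not pair embryos by the labels. Deviations of embryos with the same number correlated with r = 0.08 and 0.02 over 7238 genes. With the replicate block 3 members were called for the direction of the cross (-2.46 for plu, -1.48 for png, 1.73 for tral), 6 for the maternal ratio and 0 for the species ratio, as without it, and the library batch as a term also gave 3, while genes called overall went from 1155 to 796 with the block and to 878 with the batch term. Limits lie in 2 to 3 embryos per direction and in the unknown depth of FPKM. Another is the low level of png, plu and gnu with a D. simulans mother, where median slices were at 0 to 1.63 FPKM.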
